A study of Mus musculus with 2 samples.

Results

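The transcripts of 4 surfactant proteins (*Sftpc*, *Sftpb*, *Sftpa1* and *Sftpd*) and 2 secretoglobins (*Scgb1a1* and *Scgb3a2*) were followed through every droplet of a mouse lung single-cell experiment. They were found by symbol among the 31053 genes of the count matrices, and all 6 had counts in both libraries. The lungs came from wild-type C57/B6 mice of 2 to 4 months, held in normoxia or exposed to hypoxia (10% oxygen) for 3 weeks, and each condition gave 1 library of the 10x Chromium 3′ method. Whether the cells of several animals were pooled in a library was not given in the sources used here. After digestion of the lung, cells carrying CD45, a leukocyte surface protein, and then cells carrying CD326 (EpCAM), an epithelial surface protein, were removed with magnetic beads before capture in both conditions. The epithelial cells that make these 6 transcripts had thus been depleted, and the share of droplets that hold them is not a share of the lung. The 6 were selected on their counts in these libraries, with earlier results known, so their levels are given as a description. With 1 library per condition there was no replicate and no test, and the intervals below are exact 95% intervals that cover counting error only.

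In the lung, alveolar type 2 (AT2) cells make, store and secrete surfactant, the film of lipid and protein that keeps air spaces open at low volume. SP-C and SP-B, the products of *Sftpc* and *Sftpb*, are small hydrophobic proteins that spread the lipid film. SP-A and SP-D, the products of *Sftpa1* and *Sftpd*, are soluble collectins that bind microbes. *Scgb1a1* encodes the main secretory protein of club cells in the airway lining, and *Scgb3a2* encodes a smaller secretoglobin of the same lining.

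In the GENCODE annotation of GRCm38, *Sftpc* (ENSMUSG00000022097, 6 exons) lies on the minus strand at chr14:70520949-70524081. *Sftpa1* (ENSMUSG00000021789, 5 exons, plus strand, chr14:41131782-41136452) and *Sftpd* (ENSMUSG00000021795, 8 exons, minus strand, chr14:41172214-41185149) are close together on the same chromosome. *Sftpb* (ENSMUSG00000056370, 11 exons) is on the plus strand at chr6:72304610-72314371, and *Scgb1a1* (ENSMUSG00000024653, 3 exons) on the minus strand at chr19:9083636-9087958. *Scgb3a2* has the identifier ENSMUSG00000038791. Promoter sequences of RefSeq (GRCm38.p6) were matched for 2 of the 6, *Sftpb* and *Sftpa1*, and not for *Sftpc*, *Sftpd*, *Scgb1a1* and *Scgb3a2*. The 250 bases before the RefSeq start of both genes are shown because both transcripts were abundant in the same droplets below. Capitals mark CTCAAG, a core sequence bound by NKX2-1, the lung epithelial transcription factor, searched on both strands.
Sftpb, plus strand, chr6:72304360-72304609: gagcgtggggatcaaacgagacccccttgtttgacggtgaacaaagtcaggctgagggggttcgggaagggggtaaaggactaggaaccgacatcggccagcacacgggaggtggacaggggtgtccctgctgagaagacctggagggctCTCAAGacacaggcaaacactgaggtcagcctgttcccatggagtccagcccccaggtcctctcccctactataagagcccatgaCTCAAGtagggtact
Sftpa1, plus strand, chr14:41131538-41131787: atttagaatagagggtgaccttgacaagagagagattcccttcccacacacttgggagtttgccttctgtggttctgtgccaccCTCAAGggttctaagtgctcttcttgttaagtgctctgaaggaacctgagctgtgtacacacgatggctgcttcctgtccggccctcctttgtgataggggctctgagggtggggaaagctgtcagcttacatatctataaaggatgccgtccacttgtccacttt
The *Sftpb* window held 2 matches, 100 and 15 bases before the start, and the *Sftpa1* window held 1 match, 166 bases before it. The RefSeq start is the same as the GENCODE start for *Sftpb* and lies 6 bases inside the GENCODE gene for *Sftpa1*. CTCAAG was present in 13.3% of 32851 promoter windows of the same length, so a match is common. TATAA was found once in each window, 30 bases before the start, and in 22.8% of all windows. TGTTTAC, a FOXA motif, was in neither window and in 3.17% of all windows. These matches describe letters in the window and no binding was measured.

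A droplet here is a barcode that the authors' pipeline called as a cell, and a unique molecular identifier (UMI) counts 1 captured molecule whatever the length of the transcript, so levels of different genes are compared as UMIs. The normoxia library held 2223 droplets with 7630683 UMIs (median 1946), and the hypoxia library held 809 droplets with 2685345 UMIs (median 1974). More than 5% of UMIs were mitochondrial in 37.6% of normoxia and 13.2% of hypoxia droplets. *Epcam* had a UMI in 60 normoxia and 5 hypoxia droplets, and *Ptprc*, which encodes CD45, in 30 and 3. A single barcode was present in both libraries, with 1 UMI of the 6 transcripts in each.

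The 6 transcripts made up 170090 UMIs in normoxia, 2.23% of the library, and 25779 in hypoxia, 0.960%. *Sftpc* was the most abundant in both libraries, with 91017 UMIs in normoxia and 17550 in hypoxia. *Scgb1a1* followed with 58998 and 4861. *Sftpa1* had 11868 and 1921 UMIs, and *Sftpb* had 4607 and 982. *Sftpd*, with 2242 and 407, and *Scgb3a2*, with 1358 and 58, were the least abundant. The order of the 6 was the same in both libraries, but in normoxia the rank of *Scgb1a1* above *Sftpa1* rested on 1 droplet described below. In hypoxia 3 droplets held 3495 of the 4861 UMIs of *Scgb1a1*, so its rank there rested on few droplets too.

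Nearly all of these UMIs sat in a small number of droplets. At least 20 UMIs of the 6 were held by 55 of 3032 droplets, 42 in normoxia and 13 in hypoxia, and these held 98.4% of the UMIs of the 6 in normoxia and 92.3% in hypoxia. A single droplet held 49515 UMIs, 29.1% of the normoxia total, and in hypoxia the highest droplet held 6994, or 27.1%. The limit of 20 was chosen after the counts were seen. The lowest droplet above it had 82 UMIs in normoxia and 22 in hypoxia, the highest below it had 18 in both libraries, and 8 droplets in each library had 10 to 19. No UMI of the 6 was found in 811 normoxia droplets (36.5%) and 126 hypoxia droplets (15.6%). In the droplets below 20, the median was 1 UMI in normoxia and 2 in hypoxia.

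**Figure D1:**
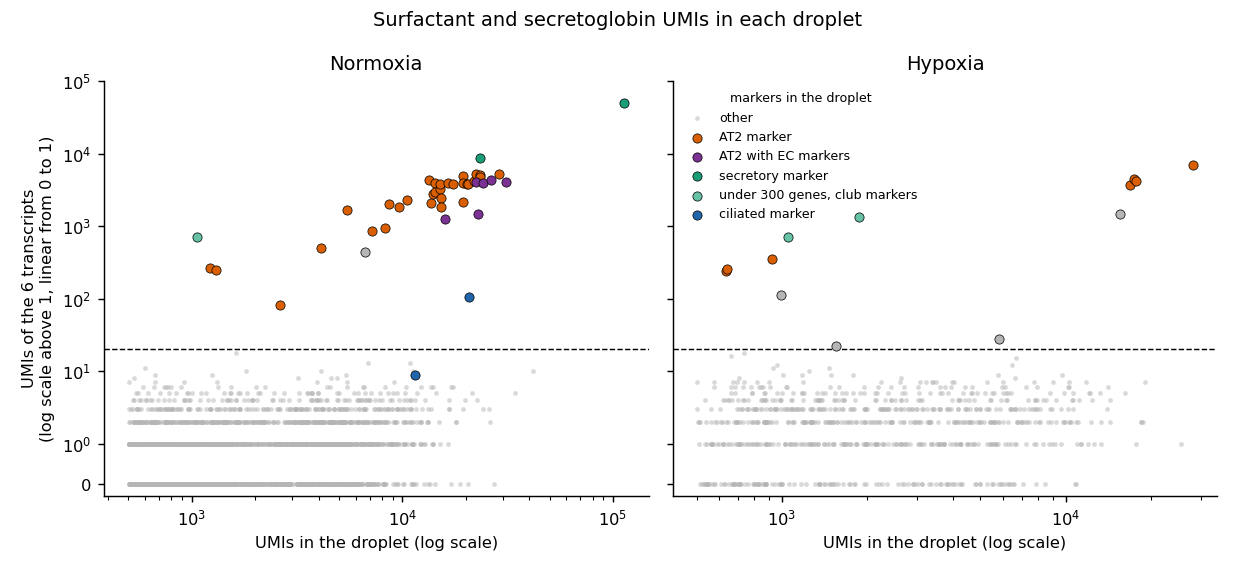
Each point is 1 droplet, with its total UMIs (log scale) on the x axis and its UMIs of the 6 transcripts (logarithmic above 1, linear from 0 to 1) on the y axis, in normoxia (left) and hypoxia (right). Colours give the epithelial markers found in the droplet and the dashed line marks 20 UMIs; 55 droplets lie above the line, apart from a band of 0 to 18 UMIs that runs across all depths.

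The droplets were sorted by markers that do not include the 6 transcripts, over all depths and mitochondrial shares, with limits set after the data were seen. AT2 droplets (at least 6 of 12 AT2 markers, such as *Lamp3*, *Abca3* and *Slc34a2*, with under 6 of 10 club cell and under 7 of 15 endothelial cell, or EC, markers) numbered 31 in normoxia and 7 in hypoxia. A further 6 normoxia droplets had as many AT2 markers together with at least 7 EC markers. There were 2 secretory droplets, with at least 6 club cell markers, and 2 ciliated droplets, with at least 5 of 9 ciliated markers, all in normoxia. Of droplets with under 300 genes and at least 2 club cell markers, 1 was in normoxia and 2 in hypoxia. A further 5 droplets with at least 20 UMIs of the 6, 1 in normoxia and 4 in hypoxia, met none of these rules. The smaller secretory droplet had 7 AT2 markers beside 6 club cell markers, and the larger had 5. All 45 droplets with 6 or more AT2 markers, that droplet included, had at least 82 UMIs of the 6, and no droplet below 20 had more than 4 AT2 markers or 3 club cell markers. *Epcam* had a UMI in 39 of the 55 droplets, against 2.14% of all droplets, and *Ptprc* in 0 of 55, which allows a share of up to 5.45%.

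**Figure D2:**
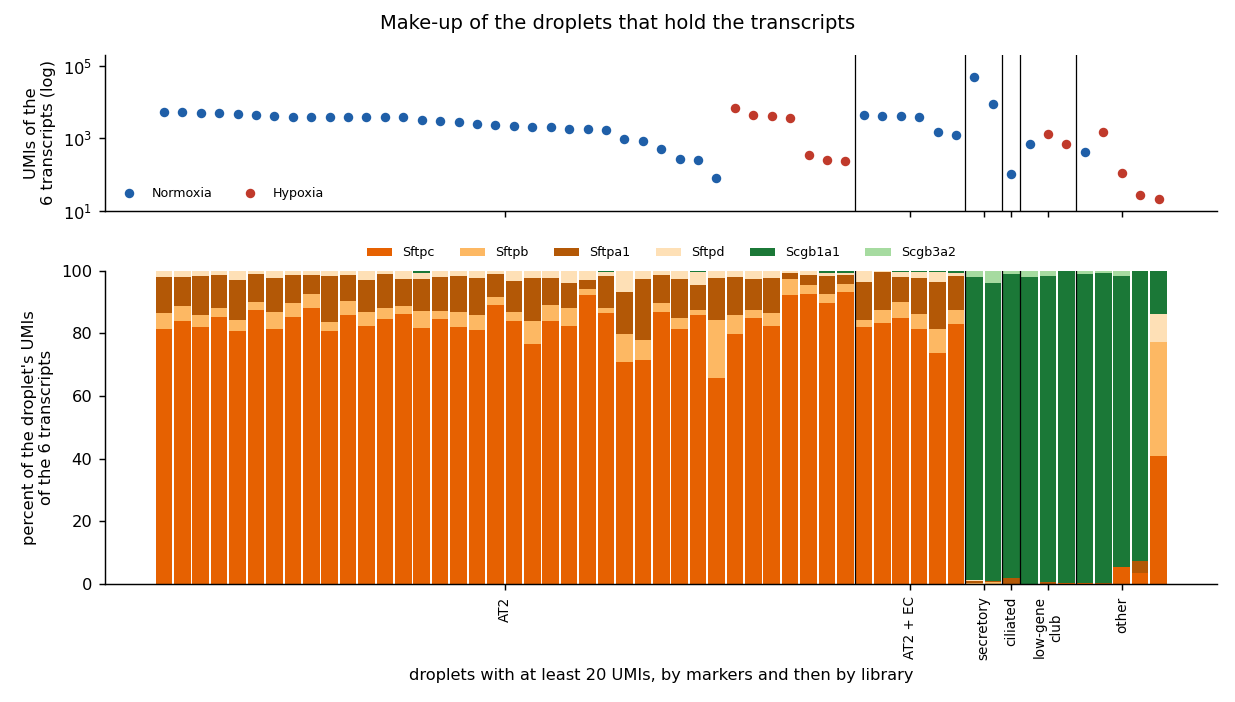
The 55 droplets with at least 20 UMIs of the 6 transcripts, ordered by marker group and then library, with their UMIs of the 6 (upper panel, log scale) and the percentage contributed by each transcript (lower panel, stacked bars). *Sftpc* fills most of every AT2 bar and *Scgb1a1* most of every secretory, ciliated and low-gene bar.

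The limits used to keep cells bore directly on these droplets. In normoxia 82.2% of the UMIs of the 6 lay in droplets above 5% mitochondrial UMIs, against 1.14% in hypoxia, and 25 of 31 normoxia AT2 droplets but 0 of 7 hypoxia AT2 droplets were above that limit. More than 4000 genes were found in 46 normoxia and 13 hypoxia droplets, which held 58.8% and 27.3% of the UMIs of the 6, and 95.5% of *Scgb1a1* in normoxia. These 59 droplets comprised 6 AT2 droplets, 6 with AT2 and EC markers, 2 secretory droplets, 1 ciliated droplet and 44 others. The 44 others had 0 to 10 UMIs of the 6 with a median of 2, so a high number of genes alone did not go with these transcripts.

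*Sftpc* had more UMIs than any other gene in 35 of the 38 AT2 droplets, the 3 others being normoxia droplets of 1226 to 7164 UMIs led by *Malat1* or *Gm42418*. Its share of a droplet's UMIs ran from 2.05% to 28.3% with a median of 17.4% in the 31 normoxia droplets, and from 19.2% to 35.7% with a median of 21.5% in the 7 hypoxia droplets. The ranges overlapped, and the lower end of the normoxia range had no counterpart in hypoxia. *Sftpa1* took 0.418% to 4.01% (median 2.09%) in normoxia and 0.456% to 3.05% (median 2.34%) in hypoxia. *Sftpb* took 0.307% to 1.19% (median 0.784%) and 0.625% to 1.498% (median 1.07%). *Sftpd* took 0.0760% to 0.769% (median 0.365%) and 0.142% to 0.643% (median 0.449%). For these 3 transcripts too the libraries overlapped. The AT2 droplets were low in both secretoglobins: *Scgb1a1* had a median of 1 UMI, with 0 to 18 in normoxia and 0 to 2 in hypoxia, and *Scgb3a2* had 2 UMIs over all normoxia and 1 over all hypoxia AT2 droplets.

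**Figure D3:**
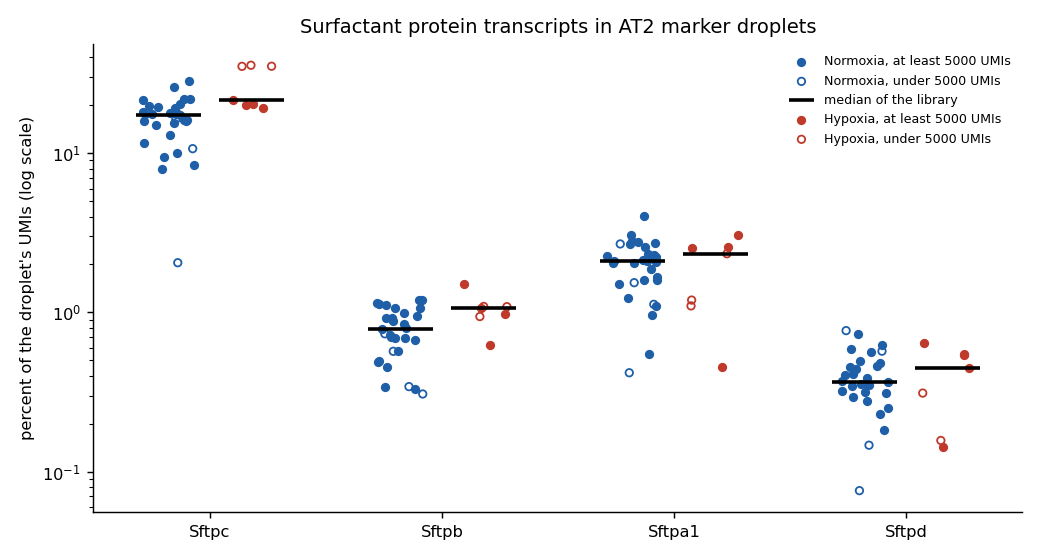
Share of a droplet's UMIs (percent, log scale) taken by each surfactant protein transcript in the 31 normoxia and 7 hypoxia AT2 droplets, 1 point per droplet, filled at 5000 UMIs or more and open below, with a bar at the library's median. The 3 open hypoxia points for *Sftpc* lie at 35.1% to 35.7%, above the normoxia points, and the filled points of both libraries overlap.

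Among the shallow AT2 droplets, those of hypoxia stood apart from the deeper ones in *Sftpc* share. The 3 in hypoxia, with 637 to 920 UMIs, had the 3 highest *Sftpc* shares, 35.1% to 35.7%, and 6 or 7 of the AT2 markers. The 4 in normoxia, with 1226 to 4093 UMIs, had shares of 2.05% to 17.6%. Only the lowest of these lay outside the range of the deeper normoxia AT2 droplets, 7.97% to 28.3%. At 5000 UMIs or more there were 27 normoxia and 4 hypoxia AT2 droplets. In these the summed *Sftpc* share was 1.19-fold higher in hypoxia (1.17 to 1.21), *Sftpb* 1.33-fold (1.24 to 1.44), *Sftpa1* 1.09-fold (1.04 to 1.15) and *Sftpd* 1.14-fold (1.01 to 1.28). The 6 transcripts together took 20.3% of the summed UMIs in normoxia, with an SD over 27 droplets of 5.37 percentage points, and 24.04% in hypoxia, with an SD over 4 droplets of 1.51. The hypoxia range of 22.0% to 25.3% lay inside the normoxia range of 11.2% to 32.4%. Droplets of a library share their animals and are not replicates of the condition. Of the 27 normoxia droplets only 4 had at most 5% mitochondrial UMIs, and against those 4 the *Sftpc* ratio was 1.35 (1.32 to 1.39). The part of mitochondrial content and depth in these ratios was not tested.

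Relative to *Sftpc*, the other surfactant transcripts had nearly equal medians in both libraries at this depth. Per 100 UMIs of *Sftpc* there were 5.17 of *Sftpb* in normoxia and 5.16 in hypoxia, 12.6 of *Sftpa1* in both, and 2.34 and 2.54 of *Sftpd*. Single droplets ranged more widely. In normoxia *Sftpb* ran from 1.88 to 12.5, *Sftpa1* from 3.14 to 27.5 and *Sftpd* from 1.14 to 9.20 per 100 UMIs of *Sftpc*. One hypoxia droplet with 16880 UMIs held 3439 of *Sftpc* but only 77 of *Sftpa1* and 24 of *Sftpd*, and only 9 of *Lyz2*, which encodes lysozyme, where the other deep hypoxia AT2 droplets had 259 to 1992. Over the 31 deep AT2 droplets, the correlations between the log2 shares of the 4 transcripts were weak, with Pearson's r from -0.094 (*Sftpc* and *Sftpd*) to 0.311 (*Sftpc* and *Sftpa1*). These are given as a description, since the droplets share their library.

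The 6 normoxia droplets with both AT2 and EC markers had 21 to 137 UMIs of 8 to 15 EC markers, where the AT2 droplets had 0 to 7 UMIs of 0 to 4 EC markers in normoxia and 1 to 5 UMIs of 1 to 3 in hypoxia. They were deep, with 16007 to 31058 UMIs and 4220 to 5920 genes, and 4 were above 5% mitochondrial UMIs. *Sftpc* took 4.75% to 15.4% of their UMIs, with a median of 12.1% against 17.4% in the normoxia AT2 droplets. They held 19083 UMIs of the 6 transcripts in all. Markers of 2 cell types stand together in these droplets, and whether they hold more than 1 cell was not tested.

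In the 2 secretory droplets the secretoglobins led. The larger, with 112728 UMIs, 8070 genes and 6.55% mitochondrial UMIs, held 47999 of *Scgb1a1*, 42.6% of its UMIs, and 962 of *Scgb3a2*, 0.853%. The other, with 23426 UMIs and 4128 genes, held 8141 of *Scgb1a1* (34.8%) and 342 of *Scgb3a2* (1.46%). *Sftpc* was nearly absent from both, with 5 and 1 UMIs, while the other surfactant transcripts were present. The larger droplet had 386 UMIs of *Sftpa1*, 112 of *Sftpd* and 51 of *Sftpb*, and the other had 21, 16 and 49. EC-like cells, as defined below, had at most 2 UMIs of *Sftpb*, 2 of *Sftpa1* and 2 of *Sftpd* in a droplet. The larger secretory droplet also carried all 9 ciliated markers (346 UMIs) and 18 UMIs of *Epcam*. Without this droplet the normoxia library held 10999 UMIs of *Scgb1a1* and 396 of *Scgb3a2*, and the 6 transcripts made up 1.60% of its UMIs in place of 2.23%.

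Both ciliated droplets had 9 of 9 ciliated markers. *Scgb1a1* had 103 UMIs in one (0.499% of its UMIs) and 9 in the other (0.0782%). *Sftpc* had 0 UMIs in both, which allows up to 93.3 UMIs per 1000000. The low secretoglobin share set these apart from the secretory droplets.

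A group of droplets was dominated by *Scgb1a1* while holding few other genes. The normoxia one had 225 genes and 1061 UMIs, of which 696 were *Scgb1a1* (65.6%) and 13 *Scgb3a2*. In hypoxia, one had 284 genes with 1324 of 1866 UMIs from *Scgb1a1* (71.0%) and 23 from *Scgb3a2*, and the other had 210 genes with 705 of 1050 UMIs (67.1%) and no *Scgb3a2*. Mitochondrial UMIs made up 0% to 0.190% of these droplets. *Cbr2* and *Cyp2f2* were among the other leading genes, but both are on the club cell marker list used to define the group. No secretory droplet was found in hypoxia, and 71.9% of the *Scgb1a1* UMIs of that library came from these 2 droplets and a droplet with 15576 UMIs and 3958 genes. That droplet had 1466 UMIs of *Scgb1a1* (9.41%), 12 of *Scgb3a2* and 0 of *Sftpc*, together with 292 UMIs of 11 EC markers, 0 of *Epcam* and 3 club cell markers. A normoxia droplet with 6620 UMIs was alike, with 427 of *Scgb1a1*, 5 of *Scgb3a2*, 1 of *Sftpc* and 107 UMIs of 14 EC markers. A further 2 hypoxia droplets had 104 and 26 UMIs of *Scgb1a1* with no club cell marker. The fifth droplet outside the marker groups, in hypoxia, had 59.7% mitochondrial UMIs, 9 UMIs of *Sftpc* and 8 of *Sftpb*.

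The club cell markers relative to *Scgb1a1* differed among these droplets. For 100 UMIs of *Scgb1a1* there were 3.27 and 4.09 UMIs of the 10 club cell markers in the secretory droplets. The low-gene droplets had 1.58 in normoxia and 0.906 and 2.13 in hypoxia. The droplets with EC markers had 2.58 in normoxia and 0.546 in hypoxia, and the hypoxia droplet with 104 UMIs of *Scgb1a1* had 0. The ciliated droplet with 103 UMIs of *Scgb1a1* had 219, from 226 UMIs of 3 club cell markers. The club cell markers were thus not confined to secretory droplets. Over all droplets below 20 UMIs of the 6, the value was 65.7 in normoxia and 8.42 in hypoxia, above that of the secretory droplets. It rests on 989 and 103 UMIs of the 10 markers, summed over cells of every class. The cells these marker UMIs came from were not tested, so the value is not the make-up of secretory cell RNA alone. *Scgb3a2* stood at 2.00 and 4.20 per 100 UMIs of *Scgb1a1* in the secretory droplets, and at 2.19 in normoxia and 1.63 in hypoxia over the same low-count droplets.

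Cell classes were built by clustering droplets with at least 200 genes and at most 5% mitochondrial UMIs, with no upper limit on genes and without the 6 transcripts, and by naming clusters from markers. The names are rebuilt here and need not match those of the study. Kept were 1382 normoxia and 702 hypoxia droplets in 25 clusters, of which 14 were EC-like (867 and 608 cells). The fibroblast-like class held 189 and 37 cells, the AT1-like class (flat alveolar type 1 cells) 47 and 11, and the AT2-like class 12 and 9. Pericyte-like cells numbered 28 and 1, lymphatic EC-like cells 11 and 3, platelet-like cells 22 and 6, and unnamed cells 206 and 27. The AT2-like cluster also took in secretory, ciliated and low-gene *Scgb1a1* droplets and, in normoxia, 2 droplets with AT2 and EC markers. The cluster is thus not a pure AT2 class. It held 16.5% of the UMIs of the 6 in the whole normoxia library and 85.9% in hypoxia, and 92.7% and 86.9% of those in kept droplets. When the mitochondrial limit was lifted, the AT2-like cluster held 98.1% and 85.9% of the library's UMIs of the 6, and 50 of the 55 droplets with at least 20 UMIs fell in it, the other 5 being EC-like.

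*Sftpc* stood at 174013 UMIs per 1000000 UMIs (CPM) in the AT2 droplets of both libraries, 1224-fold (1144 to 1312) above EC-like cells. The fold was 1167 for *Sftpa1*, 625 for *Sftpb* and 607 for *Sftpd*. *Scgb1a1*, at 160 CPM in AT2 droplets, was at 0.266 of its EC-like level, or at 0.610 (0.484 to 0.760) without the 4 EC-like droplets of at least 20 UMIs of the 6. *Scgb3a2* had 3 UMIs in AT2 droplets (5.72 CPM), with a ratio of 0.738 (0.147 to 2.30), or 1.25 (0.243 to 4.07) without those 4, so no direction can be read. The AT2 droplets were deep, and per droplet they averaged 2.42 UMIs of *Scgb1a1* in normoxia and 1.29 in hypoxia. EC-like cells below 20 UMIs of the 6 averaged 0.723 and 1.53. The lower CPM of *Scgb1a1* in AT2 droplets was thus not a lower count per droplet in normoxia. In the secretory droplets *Scgb1a1* reached 412327 CPM and *Scgb3a2* 9577 CPM, while *Sftpc* was at 44.1 CPM, below its CPM in EC-like cells. Per droplet *Sftpc* stood at 3 UMIs there, above the 0.468 of normoxia EC-like cells below 20 UMIs of the 6.

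In cells that should lack them, the 6 transcripts were found at low counts in every class. EC-like cells had 424 CPM of the 6 together (403 to 445) in normoxia and 1403 (1354 to 1453) in hypoxia, and 308 and 680 CPM without the 4 EC-like droplets of at least 20 UMIs, 1 in normoxia and 3 in hypoxia. A UMI of any of them was found in 66.8% of normoxia EC-like cells (median 3899 UMIs) and 83.9% of hypoxia EC-like cells (median 2612 UMIs). With each cell thinned to 1000 UMIs the shares were 28.6% of 818 and 47.9% of 486 cells. Fibroblast-like cells, which should lack them too, had a UMI in 64.0% of normoxia cells (median 4158 UMIs) and 91.9% of hypoxia cells (median 1845 UMIs). Without thinning, the EC-like share was close to that of fibroblast-like cells in normoxia and below it in hypoxia, where the median depths differed. Fibroblast-like cells were not compared at a thinned depth. Whether the low counts in EC-like cells are background or expression was not tested.

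**Figure D4:**
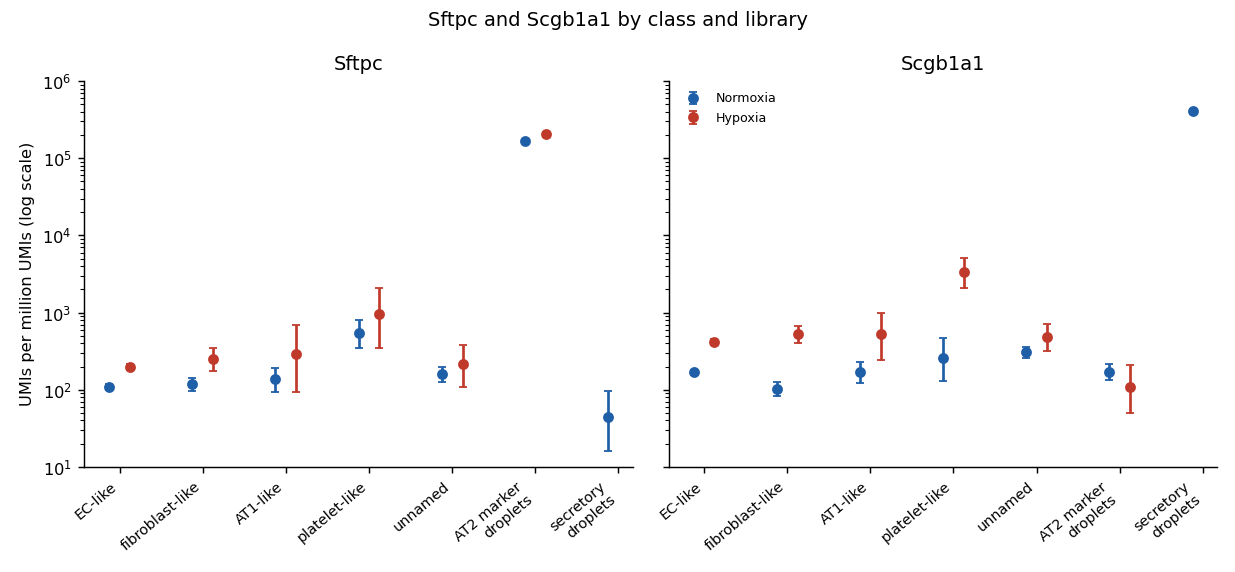
*Sftpc* (left) and *Scgb1a1* (right) in UMIs per 1000000 UMIs on a log scale by class and library, with exact Poisson 95% intervals. The cell classes are drawn without droplets of at least 20 UMIs of the 6, beside the AT2 and secretory droplets. *Sftpc* lies between 109 and 959 CPM in the 5 classes drawn. Among the groups drawn, it reaches over 100 times these levels only in AT2 droplets, and *Scgb1a1* does so only in the secretory droplets. The droplets with AT2 and EC markers, also rich in *Sftpc*, and the low-gene droplets, also rich in *Scgb1a1*, are not drawn.

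Without the droplets of at least 20 UMIs, *Sftpc* in normoxia was at 109 CPM in EC-like, 118 in fibroblast-like, 136 in AT1-like, 160 in unnamed, 215 in lymphatic EC-like and 540 in platelet-like cells, and at 60.0 CPM in pericyte-like cells. In hypoxia it was at 196 in EC-like, 251 in fibroblast-like, 292 in AT1-like, 214 in unnamed, 392 in lymphatic EC-like and 959 in platelet-like cells, and the only pericyte-like cell had 4 UMIs. The normoxia intervals of EC-like, fibroblast-like and AT1-like cells overlapped, and the platelet-like interval (343 to 811) lay above them. Platelet-like droplets were shallow, with a median of 1222 UMIs in normoxia and 893 in hypoxia, and the highest *Sftpc* count in one was 7. *Scgb1a1* in normoxia was at 169 CPM in EC-like, 103 in fibroblast-like, 169 in AT1-like and 115 in pericyte-like cells. In hypoxia it was at 421 CPM in EC-like, 524 in fibroblast-like, 526 in AT1-like and 3358 in platelet-like cells, the last from 21 UMIs in 6 cells.

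Counts in these droplets moved little with depth. Over all droplets below 20 UMIs of the 6, split at 1000, 2000, 4000 and 8000 UMIs, the normoxia mean was 1.06, 1.10, 1.24, 1.41 and 2.32 UMIs of the 6 per droplet, a 2.19-fold rise over a 14.9-fold rise in median depth. In hypoxia it was 2.35, 2.43, 2.44, 2.61 and 2.98, a 1.27-fold rise over 14.1-fold. As CPM the same droplets fell 7.57-fold in normoxia and 12.05-fold in hypoxia. Levels in CPM therefore depend on the depth of a class. Counts per droplet are given for the low signal of the libraries and for some classes, and most class levels above are in CPM only. *Sftpc* alone rose 2.46-fold and *Scgb1a1* 1.88-fold per droplet over the normoxia bins, and 1.47-fold and 1.09-fold over the hypoxia bins.

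**Figure D5:**
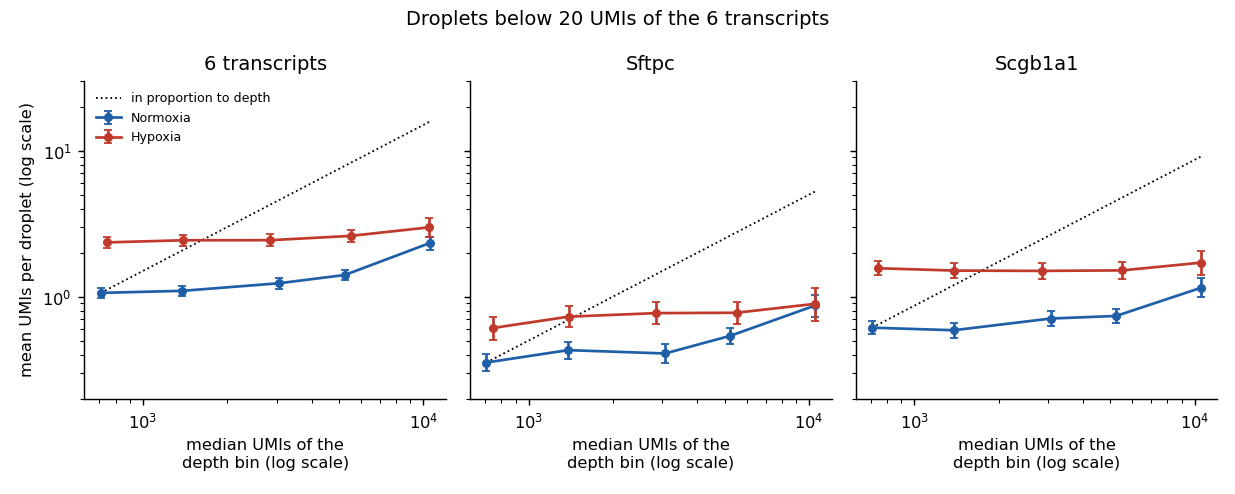
Mean UMIs per droplet (log scale, exact Poisson 95% intervals) of the 6 transcripts, *Sftpc* and *Scgb1a1* in 5 bins of total UMIs (median of the bin, log scale), in droplets below 20 UMIs of the 6. The dotted line starts at the shallowest normoxia bin and rises in proportion to depth; both libraries stay far below it at the deep end, and hypoxia lies above normoxia for the 6 transcripts and *Scgb1a1* in every bin.

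The make-up of this low signal was set beside that of the AT2 droplets. Of the 4 surfactant transcripts in droplets below 20 UMIs, *Sftpc* made up 81.9% in normoxia and 78.5% in hypoxia, against 83.7% and 84.4% in AT2 droplets. *Sftpb* made up 4.11% in normoxia and 9.05% (7.09 to 11.4) in hypoxia, against 4.08% and 4.51%. *Sftpa1* made up 11.3% and 7.57%, against 10.3% and 9.25%, and *Sftpd* 2.74% and 4.86%, against 1.94% and 1.82%. By more than counting error, the hypoxia low signal held a larger share of *Sftpb* and of *Sftpd* (3.43 to 6.67) and a smaller share of *Sftpc* (75.4 to 81.4) than the AT2 droplets of that library. Secretoglobins made up 55.9% (52.9 to 58.8) of the UMIs of the 6 in normoxia EC-like cells without the droplets of at least 20, and 43.2% (36.6 to 49.9) in fibroblast-like cells. Split at 4000 UMIs, the shares were 59.7% and 46.1% in the shallower cells and 52.9% and 41.3% in the deeper cells, with overlapping intervals in the shallower pair (55.2 to 64.1 and 35.4 to 57.0) and in the deeper pair (49.0 to 56.8 and 33.0 to 49.99). In hypoxia the shares were 62.9% (60.4 to 65.3) and 62.8% (53.2 to 71.7).

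The low signal was higher in the hypoxia library. Per droplet below 20 UMIs, the 6 transcripts were 1.96-fold higher (1.85 to 2.07) over all droplets and 1.87-fold (1.73 to 2.03) in EC-like cells, from 1.32 UMIs in normoxia to 2.47 in hypoxia. By transcript over all droplets, *Sftpb* was 3.60-fold, *Sftpd* 2.90-fold, *Scgb1a1* 2.23-fold and *Sftpc* 1.57-fold higher. The intervals of *Scgb3a2* at 1.66-fold (0.903 to 2.98) and *Sftpa1* at 1.10-fold (0.789 to 1.504) spanned 1. Both libraries had 10 or more cells in 6 of the EC-like clusters, and the hypoxia mean per droplet was higher in 6 of 6, by 1.15- to 3.23-fold. The hypoxia library held fewer UMIs of the 6 in all, 25779 in 809 droplets against 170090 in 2223, with 29.1% of the normoxia total in 1 droplet. The source of the low signal was not tested. Animal, digestion and capture cannot be told apart from hypoxia with 1 library of each.

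As CPM in EC-like cells, with a 2-fold limit and genes of at least 20 UMIs, 4 of the 6 transcripts were past the limit upward and none downward, where 2.9% of 10517 genes were higher and 5.8% lower. *Scgb1a1* was 4.00-fold higher (3.72 to 4.31), *Sftpd* 3.76-fold, *Sftpb* 3.60-fold and *Scgb3a2* 2.85-fold, while *Sftpc* at 1.80-fold and *Sftpa1* at 1.26-fold were within it. Without 4 EC-like droplets of at least 20 UMIs, the same 4 were past the limit, where 2.85% of genes were higher and 5.89% lower, and *Scgb1a1* was at 2.49-fold. The interval of *Scgb3a2*, at 2.11-fold from 12 and 15 UMIs, then spanned 1 (0.921 to 4.93). Hypoxia EC-like cells were shallower, and the fall of CPM with depth described above enters these ratios. In the AT2-like cluster 3 of the 6 were higher by 2-fold or more, where 6.44% of 1831 genes were, and 2 were lower, where 19.9% were. *Sftpc* was 2.27-fold (2.22 to 2.32), *Sftpa1* 2.19-fold and *Sftpb* 2.01-fold higher, and *Sftpd* at 1.95-fold was just within the limit. *Scgb1a1* was at 0.473 (0.451 to 0.497) and *Scgb3a2* at 0.141 of its normoxia level. Of the 8983 normoxia UMIs of *Scgb1a1* in that cluster, 8141 came from the smaller secretory droplet, and hypoxia had no such droplet. It also held 342 of the 356 normoxia UMIs of *Scgb3a2*. In hypoxia 2029 of the 2038 UMIs of *Scgb1a1* and 23 of the 24 of *Scgb3a2* came from the 2 low-gene droplets. In AT2 droplets alone, at any mitochondrial share, the *Sftpc* ratio was 1.19 at 5000 UMIs or more and 1.23 with no depth minimum. It was 1.35 at 5000 UMIs or more with the 5% mitochondrial limit that the cluster also had.

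Other genes of surfactant handling were taken from a list of 27, of which 10 had served as AT2 markers. Of the other 17, 10 were at least 10-fold higher in AT2 droplets than in EC-like cells, 7 of these at least 100-fold, 2 lay between 1- and 10-fold, 3 were lower, 1, *Scgb3a1*, had no UMI in AT2 droplets and 4.21 CPM in EC-like cells, and 1, *Marco*, had no UMI in either. Among secreted products, *Lyz2* was at 27894 CPM against 23.6, and *Sfta2*, a surfactant-associated protein gene, at 1109.8 against 1.85. Of the transcription factors of surfactant genes, *Nkx2-1* was at 383 CPM against 0.674, and *Cebpa* at 235 against 1.52. *Foxa2* was at 87.7 against 0.337, a ratio of 260 with an interval of 68.1 to 2215 from 2 UMIs in EC-like cells. AT1-like cells had 316 CPM of *Nkx2-1* and 154 CPM of *Foxa2*, the latter above the AT2 droplets, and no UMI of *Cebpa*. In lipid supply, the desaturase gene *Scd1* was 112-fold and the fatty acid synthase gene *Fasn* 60.3-fold higher, and *Pcyt1a*, of phosphatidylcholine synthesis, was at 1.27-fold. The receptors *Adgrf5* and *Calr* were lower in AT2 droplets, at 0.161 and 0.422, and *Sirpa*, at 32.5 CPM in EC-like cells, had no UMI there, which allows up to 5.72 CPM. For *Scgb3a1* that limit lies above the EC-like level, so a difference was not detectable at this depth. The secretory droplets shared some of these genes, with 60 UMIs of *Cxcl15*, 36 of *Sfta2*, 18 of *Foxa2* and 16 of *Nkx2-1*, and had none of *Napsa*, *Lamp3*, *Hc* or *Lyz1*. Between libraries in the AT2-like cluster, 3 of the 27 were past 2-fold upward (*Lpcat1* 2.42, *Hc* 2.38 and *Foxa2* 2.09) and 2 downward (*Lyz1* 0.238 and *Fabp5* 0.193), 17 were within it and 5 had too few UMIs, where 6.44% of all 1831 genes were higher and 19.9% lower. The *Foxa2* ratio rests on 15 UMIs in each library and its interval spans 1. Of the 70 normoxia UMIs of *Lyz1* in that cluster, 69 came from 1 AT2 droplet of 1226 UMIs. The make-up of the cluster differed between the libraries. In normoxia, of its 177689 UMIs, 31058 and 16007 lay in 2 droplets with AT2 and EC markers, and 20649 and 11510 in the ciliated droplets. The smaller secretory droplet held 23426 and a low-gene droplet 1061. Hypoxia had none of these kinds but the low-gene one, with 1866 and 1050 of 85167 UMIs in 2 droplets. These ratios are therefore not those of AT2 droplets alone.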

How the data were processed

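Lung cells were captured with the 10x Chromium 3′ v3.1 kit and sequenced, 1 library per condition. The authors made the deposited files with Cell Ranger (6.1.2 in the file header) against mm10, and they hold raw UMI counts per gene and called barcode, not normalized. From these counts, scanpy 1.11.5 (python 3.11.15) was used to keep droplets with at least 200 genes and at most 5% mitochondrial UMIs, with no upper gene limit. After log transformation of counts scaled to a total of 10000, 2000 variable genes per library were taken without the 6 transcripts, and Leiden clusters (resolution 2, 30 components, 15 neighbours) were named where at least 3 markers of a class were each found in 25% of cells. Levels are UMIs summed over a class per 1000000 of its UMIs, with exact Poisson, conditional binomial and Clopper-Pearson intervals. The conditional binomial interval of a ratio, the 2-fold call and the thinning were run on simulated counts. Those counts were drawn with counting error only, so spread between droplets was not covered. The other intervals were not checked in this way. No batch correction and no doublet removal were made. No p-value is given.

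The members, the marker and surfactant lists and the rule for named genes (the 6 transcripts, those lists, and the 3 genes most alike each transcript) were chosen with earlier results of these data known. The marker groups of single droplets, the limits of 20 and 5000 UMIs and the tests of them were added after the data were seen. Alternatives covered the gene and mitochondrial limits, clustering, class membership, scaling, thinning and the minimum count of the background genes. The study's own filters gave upper limits of 4000 and 6000 genes in different places, and both were tried.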

Additional observations from a re-analysis of the deposited data

Results flagged for a closer look

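The 2 secretoglobins moved in opposite directions between the libraries in different classes. *Scgb1a1* was at 0.473 of its normoxia level in the hypoxia AT2-like cluster and 4.00-fold higher in EC-like cells. *Scgb3a2* was at 0.141 in the AT2-like cluster and 2.85-fold higher in EC-like cells. With 1 library per condition the difference between the classes was not tested. Of the 8983 *Scgb1a1* UMIs in the normoxia AT2-like cluster, 8141 lay in 1 secretory droplet, and no secretory droplet was found in hypoxia. The same secretory droplet held 342 of the cluster's 356 normoxia UMIs of *Scgb3a2*. In hypoxia 2 low-gene droplets held 2029 of the cluster's 2038 UMIs of *Scgb1a1*, and 1 of them held 23 of its 24 UMIs of *Scgb3a2*. The AT2-like ratios of both secretoglobins thus compare single droplets of unlike kinds. In EC-like cells without 4 droplets of at least 20 UMIs of the 6, the ratios were 2.49 (2.25 to 2.76) for *Scgb1a1* and 2.11 (0.921 to 4.93) for *Scgb3a2*. In AT2 droplets alone the *Scgb1a1* ratio was 0.645 (0.284 to 1.29), and 0.365 (0.115 to 0.892) at 5000 UMIs or more, from 74 UMIs in normoxia and 5 in hypoxia.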

How the results depend on the processing

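No paired analysis was possible because normoxia and hypoxia are represented by 1 library each, and for the same reason no replicate could be left out. Direction did not turn: every hypoxia/normoxia ratio of the summed 6 transcripts stayed above 1, from 1.87 to 3.46 in EC-like and from 1.07 to 1.91 in AT2-like cells over all alternatives. The values themselves depended on which droplets were kept, and beyond what the settings remove or add the cause was not tested.

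The AT2-like share of the library's UMIs of the 6 was 16.5% in normoxia and 85.9% in hypoxia. It was 5.23% and 58.8% with an upper limit of 4000 genes, 90.9% and 77.9% at a 10% mitochondrial limit, 98.1% in normoxia with no such limit, 15.2% and 80.7% when cells were assigned by a gate on markers, and 52.3% and 77.9% over AT2 droplets of all depths. Clustering each library alone left 0% in normoxia, where no cluster took the AT2-like name, so no AT2-like ratio could be given there. The EC-like level was 424 CPM in normoxia and became 479 at the 10% limit, 522 with no mitochondrial limit, 738 by gate and 490 as a mean over cells. In hypoxia it was 1403 CPM and became 1467 under 4000 genes and 1695 as a mean over cells. The EC-like ratio of 3.31 became 2.93, 2.74 and 1.87 at the 10% limit, no limit and by gate.

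The AT2-like ratio of 1.65 became 1.72 under 4000 genes, 1.07 at the 10% limit, 1.18 with no limit, 1.24 by gate, 1.88 scaled without the 6 transcripts, 1.91 as a mean over cells, 1.47 scaled to the median ratio over genes and 1.21 over AT2 droplets. That median shifted by 0.16 (log2, 460 genes) in AT2-like and 0.06 in EC-like cells. The secretoglobin share in EC-like cells was 67.9% in normoxia (65.3% at the 10% limit, 64.9% with no limit, 39.2% by gate) and 81.8% in hypoxia (79.9% with no limit). Without droplets of at least 20 UMIs of the 6, an alternative chosen after seeing the data like that over AT2 droplets, the EC-like values were 308 and 680 CPM, a ratio of 2.21, and secretoglobin shares of 55.9% and 62.9%.

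The share of EC-like cells with a UMI went from 28.6% in normoxia and 47.9% in hypoxia to 17.6% and 40.1% when thinned to 500 UMIs, 40.7% and 61.8% at 2000, and 66.8% and 83.9% without thinning. The share of genes past 2-fold at a minimum of 1 UMI was 19.4% upward and 43.6% downward in AT2-like cells, and 9.70% and 20.1% in EC-like cells, or 1.92% and 3.74% at a minimum of 50. A minimum of 10 in place of 20 UMIs gave a share of 92.7% in hypoxia. The *Sftpc* ratio of 1.19 in deep AT2 droplets was 1.35 at the 5% mitochondrial limit, 1.23 with no depth minimum and 1.15 from medians, all added after seeing the data. Scrublet called 3 of 2084 droplets, none with at least 20 UMIs of the 6, so it did not serve as a doublet call for them.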

Other observations

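For each transcript, the genes outside the 6 with the most alike levels were found by Pearson's r of log2(CPM + 1) over 39 sums of a cluster in a library, among 10207 genes. These sums share library and depth, and the highest values of both genes fall in few of them, so r is a description. Between the 6 transcripts themselves r ran from 0.471 (*Sftpb* and *Scgb3a2*) to 0.835 (*Sftpc* and *Scgb1a1*), and for *Sftpa1* and *Scgb1a1* the value with *Sftpc* (0.811 and 0.835) was above that of every gene named here. Outside the 6, *Sftpc* was closest to *Egfl6* (0.872), *Bex4* (0.865) and *Chia1* (0.845), and *Sftpa1* to the same 3 genes at 0.755, 0.745 and 0.728. *Sftpb* was closest to *Chil1* (0.741), *Cbr2* (0.731) and *Chia1* (0.710), and *Sftpd* to *Chia1* (0.730), *Bex4* (0.722) and *Muc1* (0.709). *Scgb1a1* was closest to *Chil1* (0.771), *Slc34a2* (0.745) and *Chia1* (0.737), and *Scgb3a2* to *Cxcl15* (0.759), *Slc34a2* (0.723) and *Chil1* (0.694). *Slc34a2*, *Chil1*, *Cxcl15* and *Muc1* are on the AT2 marker list, and the AT2-like cluster held both AT2 and *Scgb1a1*-rich droplets.

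In EC-like cells, where 2.9% of 10517 genes were past 2-fold upward and 5.8% downward, 4 of the 27 surfactant pathway genes were past it upward in hypoxia, *Scd1* at 5.81, *Fabp5* at 3.65, *Slc34a2* at 3.58 and *Cxcl15* at 2.44, and 1 downward, *Ctsh* at 0.373, while 11 were within the limit and 11 had too few UMIs. *Scd1* was at 9.69 CPM in normoxia and 56.3 in hypoxia, and *Fabp5* at 22.3 and 81.5 CPM. The other upward ratios rest on few UMIs, 7 in normoxia and 15 in hypoxia for *Slc34a2*, and 13 and 19 for *Cxcl15*. Without the EC-like droplets of at least 20 UMIs of the 6, the *Cxcl15* ratio was 2.25 and its interval spanned 1 (0.998 to 5.21).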
